A study of Homo sapiens with 12 samples.

Results

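The Kruppel-like factors (KLF) are zinc finger transcription factors, and 10 of their genes were followed here: KLF2, KLF3, KLF4, KLF5, KLF6, KLF7, KLF9, KLF10, KLF11 and KLF13. A gene was measured where the annotation of the array named a probe set for it alone. That held for 9 of the 10, out of 17687 genes with a named probe set. KLF13 was not analysed here. Each of the 9 was read by 1 probe set, and all 9 passed the filter on dim probe sets, as did 12758 genes in all.

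All cultures were MCF-10A, an immortal line of human mammary epithelium that does not form tumors. In the co-culture group, cells with HER2 L755S, a kinase-domain mutation of a growth factor receptor, grew together with cells carrying PIK3CA E545K, which alters the catalytic part of a PI3 kinase. The other groups were HER2 L755S cells alone and PIK3CA E545K cells alone, with 4 cultures and 4 arrays in each of the 3 groups. All grew with a physiologic amount of EGF and no further treatment, and were harvested after 7 to 14 days, when about 75% of the co-cultured cells were HER2-mutant by droplet digital PCR. Each mutation was represented by 1 isogenic line, no line without a mutation was analysed here, and the labels do not give the day on which a particular culture was harvested. A difference between these lines has no baseline, and mutation, line and harvest cannot be told apart.

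KLF proteins bind GC-rich and CACCC sequences through zinc fingers at their carboxyl end, and their amino ends decide whether they activate or repress. KLF3 recruits the co-repressor CtBP, whereas KLF9, KLF10 and KLF11 recruit SIN3A and histone deacetylases. KLF2, KLF4, KLF5, KLF6 and KLF7 can act as activators. In stratified and glandular epithelia KLF4 is known for cell cycle exit and differentiation, and KLF5 for the growth of basal cells. KLF9 is induced by glucocorticoids, and KLF10 and KLF11 were first described as genes induced early by TGF-beta.

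The promoter windows of the 4 members that were higher in the HER2-mutant line and have an entry in the RefSeq table are shown, because the factors bind motifs of this kind themselves. Each holds the 250 bases before an annotated start (RefSeq, GRCh38.p14), 5′ to 3′ on the strand of the gene. Capitals mark the CACCC box (CACCC or GGGTG) and the GC box (GGGCGG or CCGCCC), searched on both strands.
KLF9, chr9:70414658-70414907, minus strand: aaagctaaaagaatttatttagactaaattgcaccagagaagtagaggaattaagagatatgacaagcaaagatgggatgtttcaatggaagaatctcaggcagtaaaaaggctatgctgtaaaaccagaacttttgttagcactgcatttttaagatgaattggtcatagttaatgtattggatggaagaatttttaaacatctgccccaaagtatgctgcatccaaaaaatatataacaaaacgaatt
KLF4, chr9:107489770-107490019, minus strand: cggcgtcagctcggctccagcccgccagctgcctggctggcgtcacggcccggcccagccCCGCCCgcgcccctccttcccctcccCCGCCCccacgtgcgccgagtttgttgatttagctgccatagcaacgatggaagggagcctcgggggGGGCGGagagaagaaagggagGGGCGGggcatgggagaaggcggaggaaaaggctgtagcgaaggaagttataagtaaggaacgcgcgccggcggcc
KLF6, chr10:3785210-3785459, minus strand: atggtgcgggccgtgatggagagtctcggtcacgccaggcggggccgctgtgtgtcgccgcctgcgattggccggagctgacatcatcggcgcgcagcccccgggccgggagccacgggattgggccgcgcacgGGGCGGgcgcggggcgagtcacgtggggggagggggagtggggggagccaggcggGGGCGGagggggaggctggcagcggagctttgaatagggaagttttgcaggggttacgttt
KLF5, upstream start, chr13:73054726-73054975, plus strand: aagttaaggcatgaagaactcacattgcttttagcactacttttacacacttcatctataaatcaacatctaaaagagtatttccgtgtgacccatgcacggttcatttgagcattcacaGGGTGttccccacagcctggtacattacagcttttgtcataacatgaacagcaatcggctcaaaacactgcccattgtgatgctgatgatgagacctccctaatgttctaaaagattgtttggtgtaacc
KLF5, downstream start, chr13:73058755-73059004, plus strand: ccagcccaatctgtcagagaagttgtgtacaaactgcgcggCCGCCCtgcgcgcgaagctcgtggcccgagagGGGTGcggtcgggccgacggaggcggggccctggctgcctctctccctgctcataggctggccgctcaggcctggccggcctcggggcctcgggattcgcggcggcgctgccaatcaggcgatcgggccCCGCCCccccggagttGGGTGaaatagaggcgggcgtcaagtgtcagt
Of all 35116 windows in the table, 54.7% held a CACCC box and 42.6% a GC box. The KLF9 window had 32.4% G and C and held neither motif, against a median of 58% G and C over all windows. KLF4 had 4 GC boxes, KLF6 had 2, and the downstream KLF5 window had 2 GC boxes and 2 CACCC boxes. The upstream KLF5 window had 1 CACCC box. No match of one motif overlapped a match of the other in these windows. A match is a run of letters and not a binding site that was measured. Windows of members that were not called between the lines held GC boxes as well, 4 for KLF2, 2 and 6 for KLF11 and from 0 to 4 for KLF7. Any link between motifs and level was not tested.

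Signals are given on the log2 scale of the deposited values. Array medians lay between 6.41 and 6.49. Background was taken from 612 negative control probe sets, whose 95th percentile was 6.32 to 7.12 on the 12 arrays. KLF3, KLF5, KLF6, KLF7, KLF9, KLF10 and KLF11 were above that percentile on all 12 arrays. KLF4 was above it on the 4 HER2-mutant arrays and on no other array, so its folds from that line are given as bounds. KLF2 was above it on 0 of 12 arrays, so its comparisons say little. KRT5, the keratin of basal cells, stood at 17.11 to 17.48 on every array and was not called between the lines. In co-culture it differed by -0.20 from HER2-mutant cells (limma adjusted p 0.00165) and by -0.31 from PIK3CA-mutant cells (adjusted p 4.81e-05). Of 10 basal epithelial markers 6 had a probe set, and all 6 passed the filter. The other 5 differed between the HER2-mutant and PIK3CA-mutant lines in both directions, EPCAM by -2.02, ITGB4 by -1.41, SFN by -0.73, CDH1 by 0.72 and KRT14 by 0.60 on the log2 scale. The log2 of the summed signal of all 6, KRT5 included, was 17.90 to 17.97 in co-cultures, 17.80 to 17.92 in HER2-mutant and 18.22 to 18.28 in PIK3CA-mutant cultures. Of 5 fibroblast markers LUM and PDGFRB failed the filter. COL1A1, COL1A2 and DCN passed it. The log2 of the summed fibroblast signal was 9.56 to 9.75 in co-cultures, 10.92 to 11.29 in HER2-mutant and 8.91 to 9.41 in PIK3CA-mutant cultures. Only DCN was called when HER2-mutant cells were compared with PIK3CA-mutant cells, at 3.62 (limma adjusted p 2.89e-14). COL1A1 and COL1A2 were not called there, at 0.09 and 0.14 (limma adjusted p 0.652 and 0.471). Of 4 blood markers PTPRC and LYZ failed the filter, and the log2 of the summed blood signal was 7.84 to 8.36 in co-cultures, 6.66 to 6.96 in HER2-mutant cultures and 7.71 to 8.14 in PIK3CA-mutant cultures. CD14 had a measured difference of -2.12 on the log2 scale between the HER2-mutant and PIK3CA-mutant lines. Its HER2-mutant mean of 5.39 was below the 95th percentile of the negative controls, so that size was limited by background. CD3E, the other tested blood marker, was called the other way, at 0.54 (limma adjusted p 0.0227). Its signals of 4.31 to 5.63 were below the 95th percentile of the negative controls on every array. Of 4 endothelial markers 1 passed the filter, PECAM1 not among them, and of 2 fat cell markers 0 did. The part of these markers in the results was not tested.

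Comparing the lines grown alone asked which members of the family differed between HER2-mutant and PIK3CA-mutant cells. Transcripts of KLF9, KLF4, KLF5, KLF3 and KLF6 were higher in the HER2-mutant line, KLF10 was lower, and KLF2, KLF7 and KLF11 did not pass the test. Among the called members above background in both lines, KLF9 showed the largest difference. In the limma fit 6 of 9 members were called, 5 higher and 1 lower, at an adjusted p under 0.05. Of all 12758 genes 59.5% were called in this comparison, 30% as higher and 29.5% as lower, so the share of members called is near the background. The median difference was 0.71 over the 9 members and 0.05 over all genes, on the log2 scale.

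The members that recruit co-repressors were split. KLF9 had log2 signals of 12.68, 11.91, 12.32 and 12.36 in the HER2-mutant cultures, against 9.30, 8.96, 9.89 and 9.29 in the PIK3CA-mutant cultures. The groups did not overlap, and the lowest HER2-mutant culture was well above the highest PIK3CA-mutant one. KLF9 differed by 2.96 ± 0.21 on the log2 scale (SE, limma adjusted p 2.1e-11), a 7.76-fold higher signal. KLF10 went the other way, at 11.90, 12.74, 12.87 and 13.13 in HER2-mutant cultures and 14.47, 14.20, 14.44 and 14.23 in PIK3CA-mutant cultures. Its groups were apart as well, with HER2-mutant replicate 1 the lowest of all. The KLF10 difference was -1.68 ± 0.17 (SE, limma adjusted p 7.59e-09), a signal 3.20-fold lower in the HER2-mutant line. KLF11, the closest relative of KLF10, averaged 8.72 ± 0.04 in HER2-mutant and 8.73 ± 0.40 in PIK3CA-mutant cultures (SD, n = 4 each). The 95% interval of its difference ran from -0.32 to 0.32 (limma adjusted p 0.99). KLF3, which binds CtBP, had 11.95, 11.97, 12.21 and 11.98 in HER2-mutant cultures, against 10.96, 11.10, 11.27 and 11.18 in PIK3CA-mutant cultures. The spread within each group was far smaller than the gap between them, and the difference was 0.90 ± 0.10 (SE, limma adjusted p 5.26e-08).

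Among the activators the differences ran in 1 direction or were not called. KLF4 had log2 signals of 8.57, 7.69, 8.48 and 8.65 in HER2-mutant cultures, against 6.10, 6.03, 5.73 and 6.04 in PIK3CA-mutant cultures. Only the HER2-mutant arrays were above the 95th percentile of the negative controls, with replicate 2 the lowest of them. KLF4 was at least 3.97-fold higher in the HER2-mutant line, with a measured difference of 2.37 ± 0.20 on the log2 scale (SE, limma adjusted p 3.92e-10). The bound sets each dim array at the 95th percentile of its negative controls. KLF5 had 15.46, 15.31, 15.40 and 15.34 in HER2-mutant cultures and 14.18, 13.82, 13.94 and 13.81 in PIK3CA-mutant cultures. These groups were well apart, and the difference was 1.44 ± 0.09 (SE, limma adjusted p 1.32e-12), or 2.71-fold. KLF6, a factor found in most tissues, had 16.11, 16.21, 16.13 and 15.98 in HER2-mutant cultures and 15.43, 15.22, 15.54 and 15.38 in PIK3CA-mutant cultures. Its groups did not overlap either, yet it was the smallest called difference, 0.71 ± 0.08 (SE, limma adjusted p 8.3e-08), or 1.64-fold.

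KLF7, which is known for neuronal development, averaged 13.69 ± 0.25 in HER2-mutant cultures and 13.56 ± 0.12 in PIK3CA-mutant cultures (SD, n = 4 each). Its 95% interval ran from -0.08 to 0.35 on the log2 scale, so a change of more than about 0.35 between the lines is outside it (limma adjusted p 0.268). KLF2, which holds endothelial and T cells in quiescence, ran from 5.50 to 6.70 in HER2-mutant and from 5.50 to 6.08 in PIK3CA-mutant cultures, below the 95th percentile of the negative controls throughout. Groups did not overlap for 6 of the 9 members, the same 6 that were called, and for 53% of the 12758 genes.

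**Figure D1:**
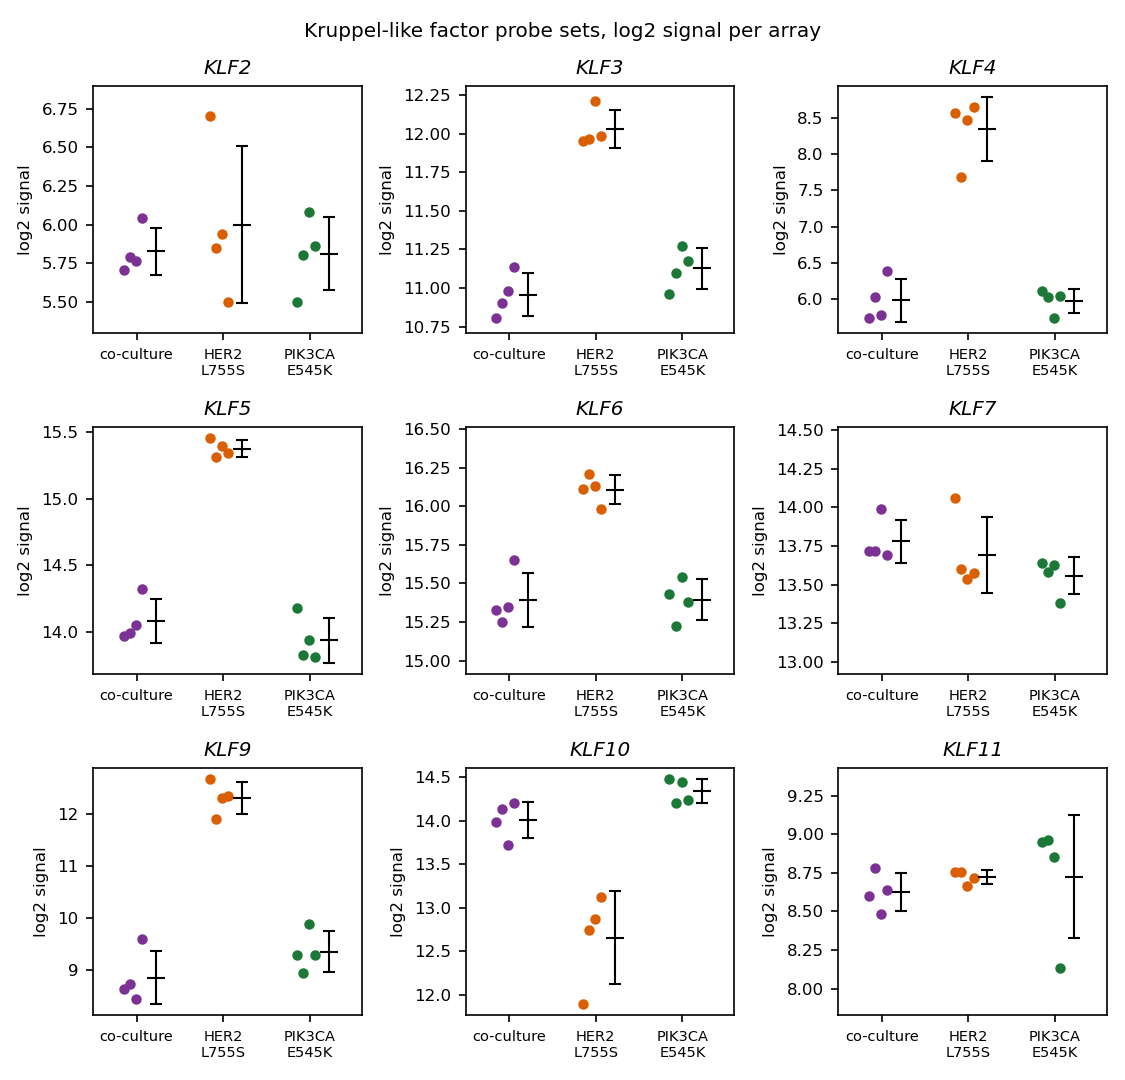
Log2 probe-set signal (vertical axis, a separate range per gene) of the 9 measured Kruppel-like factor genes in co-cultures, HER2 L755S cultures and PIK3CA E545K cultures. Points are arrays and bars are the mean with SD of 4 arrays. KLF9, KLF4, KLF5, KLF3 and KLF6 are high in the HER2 L755S cultures alone, KLF10 is low there, and for these 6 genes the co-cultures lie on the PIK3CA E545K side.

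Comparing the co-culture with the HER2-mutant single culture asked how the mixture differed from its majority line. The same 6 members were called, each in the opposite sense: KLF9, KLF4, KLF5, KLF3 and KLF6 were lower in the co-culture and KLF10 was higher. Of all genes 51% were called in this comparison, 24.9% as higher and 26% as lower. Arrays did not overlap for 6 of the 9 members, the same 6, and for 44.4% of all genes. Any pair of the comparisons between groups shares 4 arrays, so they are not independent. The median difference was -0.71 over the members and -0.05 over all genes.

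KLF9 had log2 signals of 8.65, 8.74, 8.46 and 9.60 in the co-cultures. Replicate 4 was the highest by far and still below every HER2-mutant culture. The difference from the HER2-mutant line was -3.46 ± 0.21 (SE, limma adjusted p 2.21e-12), an 11-fold lower signal. KLF4 had 5.74, 6.02, 5.78 and 6.39, all below the 95th percentile of the negative controls. It was at least 3.53-fold lower in the co-culture (measured -2.37 ± 0.20, SE, limma adjusted p 7e-10). KLF5 had 13.97, 13.99, 14.05 and 14.32 in the co-cultures, with replicate 4 again the highest and no overlap with the HER2-mutant line. It differed by -1.30 ± 0.09 (SE, limma adjusted p 1.52e-11).

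KLF3 had log2 signals of 10.80, 10.90, 10.98 and 11.14 in the co-cultures and differed by -1.07 ± 0.10 from the HER2-mutant line (SE, limma adjusted p 5.16e-09). KLF6 had 15.33, 15.25, 15.35 and 15.65, a difference of -0.71 ± 0.08 (SE, limma adjusted p 1.34e-07). Neither overlapped the HER2-mutant cultures. KLF10 had 13.99, 14.13, 13.73 and 14.20, all above the HER2-mutant cultures, and was higher by 1.35 ± 0.17 (SE, limma adjusted p 3.7e-07). KLF7 averaged 13.78 ± 0.14, KLF11 8.63 ± 0.12 and KLF2 5.83 ± 0.15 in the co-cultures (SD, n = 4). KLF2, KLF7 and KLF11 were not called, with 95% intervals of -0.59 to 0.25, -0.13 to 0.30 and -0.42 to 0.23.

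Against the PIK3CA-mutant single culture the question was what the HER2-mutant cells added. By limma 0 of the 9 members were called, whereas 25.7% of all genes were, 11.1% as higher and 14.6% as lower. By the unadjusted limma p 2 members were under 0.05: KLF9 at -0.50 ± 0.21 (SE, adjusted p 0.0832) and KLF7 at 0.22 ± 0.10 (SE, adjusted p 0.123). KLF7 and KLF10 were the 2 members whose arrays did not overlap, as was true of 28.3% of all genes. KLF10 differed by -0.33 ± 0.17 (SE, limma adjusted p 0.165). Closest to no difference was KLF6, with a 95% interval of -0.17 to 0.17. The KLF4 interval was -0.40 to 0.42, with both groups below the 95th percentile of the negative controls. The intervals for KLF5 and KLF3 were -0.04 to 0.33 and -0.38 to 0.04. In order of level, the HER2-mutant line was thus highest for KLF3, KLF4, KLF5, KLF6 and KLF9 and lowest for KLF10, and the order of co-culture and PIK3CA-mutant line was not resolved for any of the 6.

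The call on KLF9 depended on single arrays. Without co-culture replicate 4 the difference from the PIK3CA-mutant line was -0.75 (limma adjusted p 0.00457), and the co-culture then lay below both single cultures by the test that takes the larger of both p-values (adjusted p 0.036). With all arrays that test gave an adjusted p of 0.511 for KLF9 and called 0 members and 1.85% of all genes. Leaving out PIK3CA-mutant replicate 2 also made the KLF9 difference a call (-0.64, limma adjusted p 0.0391). Without HER2-mutant replicate 1, an array of neither group that enters the pooled spread, KLF10 (limma adjusted p 0.02) and KLF7 (adjusted p 0.0491) were called. With array weights, which give poorer arrays less influence, KLF9, KLF10 and KLF7 were called together (limma adjusted p 0.0209, 0.0477 and 0.0425).

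**Figure D2:**
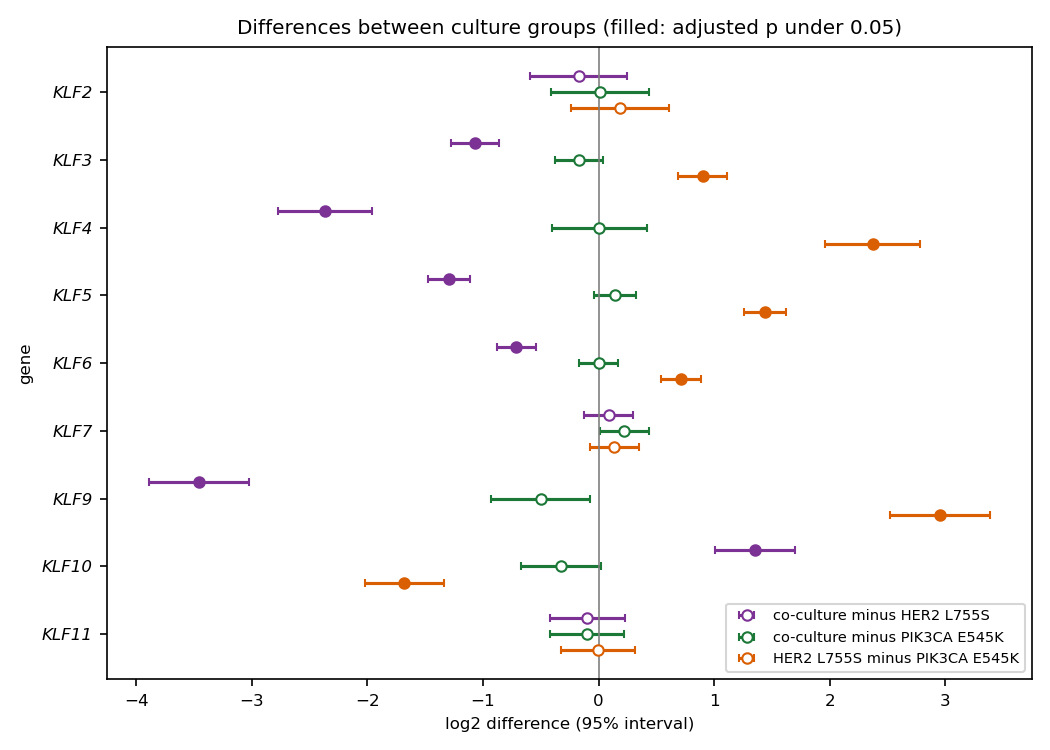
Log2 differences (horizontal axis) with 95% intervals for the 9 genes in the 3 comparisons between groups. Filled points passed an adjusted p under 0.05. For 6 genes the co-culture against HER2 L755S and HER2 L755S against PIK3CA E545K lie on opposite sides of 0, and no point for the co-culture against PIK3CA E545K is filled.

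The harvest at about 75% HER2-mutant cells allows a direct expectation: a blend made of HER2-mutant signal (75%) and PIK3CA-mutant signal (25%), formed on the linear scale. The co-culture missed this blend for 6 of the 9 members, 5 lower and 1 higher, and 40.8% of all genes were called as different from it, 22.3% as lower and 18.5% as higher. In bulk RNA, fewer cells of a kind and less RNA per cell cannot be told apart, and the cell share is itself approximate. KLF9 was expected at 11.96 and measured at 8.86 ± 0.51 (SD, n = 4) on the log2 scale, a difference of -3.10 ± 0.20 (SE, limma adjusted p 4.33e-11). All 4 co-culture arrays lay below the blend by more than the spread between them. KLF4 was expected at 8.02, and the co-culture had a measured difference of -2.04 ± 0.19 from it (SE, limma adjusted p 1.45e-08). With each dim co-culture array set at its negative-control level, as in the bounds above, the co-culture was 2.82-fold below the blend. The PIK3CA-mutant part of the blend, also dim, entered as measured, so this fold is not a strict lower bound.

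KLF5 was expected at 15.13 and measured at 14.08 ± 0.16, a difference of -1.05 ± 0.08 (SE, limma adjusted p 8.88e-10). KLF3 differed from its blend by -0.89 ± 0.09 (adjusted p 8.19e-08) and KLF6 by -0.56 ± 0.08 (2.74e-06). KLF10 was above its blend by 0.72 ± 0.14 (SE, limma adjusted p 0.000331), a call that was lost when the blend was set at 50% of each line (0.28, adjusted p 0.193). The other 5 calls held at 50% and at 90% HER2-mutant cells. KLF2, KLF7 and KLF11 were not called against the blend.

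Expressed as a position between the lines, where PIK3CA-mutant is 0% and HER2-mutant 100% on the linear scale, the mean co-culture stood at 29.5% for KLF10. It stood at 6.17% for KLF5, 0.0271% for KLF6, -4.34% for KLF9 and -13.0% for KLF3. No position is given for KLF4, which was below the 95th percentile of the negative controls in co-culture and in PIK3CA-mutant cells alike. Single co-cultures ranged from -6.90% to 2.63% for KLF9, from -14.7% to 30.2% for KLF6 and from 13.3% to 50.3% for KLF10. In none of these 5 genes did any of the 4 co-cultures reach 75%.

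**Figure D3:**
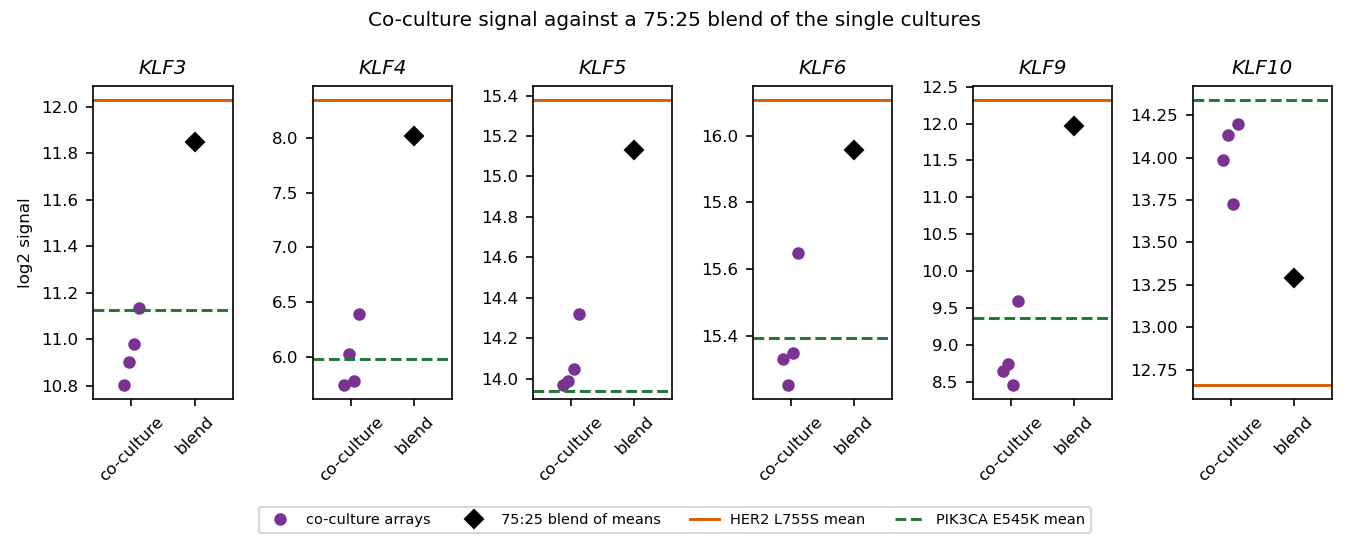
Log2 signal (vertical axis) of the 4 co-culture arrays beside the expected blend of 75% HER2 L755S and 25% PIK3CA E545K, for the 6 genes that differed between the lines. Lines give the means of the single cultures. Every co-culture point lies on the PIK3CA E545K side of the blend.

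The rest of the family, genes around it and genes reported as its targets were examined as lists. Of 17 other KLF and SP genes, 16 had a probe set and 9 passed the filter, and the HER2-mutant line had 3 of them higher and 3 lower than the PIK3CA-mutant line, with a median of 0.01. Of all genes 30% were higher and 29.5% lower. KLF8, a CtBP-binding relative of KLF3, was higher by 1.21 and SP1, the founding GC-box factor, by 1.09. SP3 was higher by 0.45, KLF16 differed by -0.67 and KLF12 by -0.55. SP8 differed by -0.75, but it was above the 95th percentile of the negative controls on 0 of 12 arrays. Against the PIK3CA-mutant line the co-culture was higher for SP1 by 0.42 (limma adjusted p 0.000514) and for SP3 by 0.24 (0.0495), and the other 7 were not called. KLF8 in co-culture differed from HER2-mutant cells by -0.96 (limma adjusted p 4.84e-06) and was not called against PIK3CA-mutant cells (0.24, adjusted p 0.234).

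Partners and regulators of the KLF proteins were mixed. Between the lines, 3 of 9 tested co-regulators were higher in HER2-mutant cells and 2 were lower, with a median of 0.14 against 0.05 over all genes. For this and the next lists, the shares over all genes were 30% higher and 29.5% lower. The acetyltransferase gene CREBBP was higher by 1.04 and SIN3A by 0.82, and CTBP2 differed by -0.78 and HDAC2 by -0.63. Of 8 ubiquitin ligase genes 3 were higher and 3 lower, with a median of -0.05. NEDD4L was higher by 1.63 and SIAH1 by 1.10, SMURF2 differed by -0.56, and WWP1 and FBXW7, whose products mark KLF5 for degradation, were not called (0.07 and -0.17). In separate limma contrasts WWP1 in co-culture differed by -0.40 from HER2-mutant cells (adjusted p 0.00165) and by -0.33 from PIK3CA-mutant cells (adjusted p 0.0157). The test that takes the larger of both p-values is not reported here for WWP1. Of 9 genes of the ERK5-MEF2 path and the FOXO family, known inducers of KLF2 and KLF4 in other cells, 5 were higher and 0 lower, with a median of 0.68. FOXO1 was higher by 2.65, FOXO3 by 1.57 and MAP2K5 by 0.71. The other two called genes were dim, with FOXO4 above the 95th percentile of the negative controls on 2 of 12 arrays and MAP3K3, whose value is the median, on 0 of 12. Of 9 genes of the early TGF-beta and BMP response 3 were higher and 4 lower, with a median of -0.31. SKIL differed by -1.27. ID1 and BAMBI were lower too, but in HER2-mutant cultures they were above the 95th percentile of the negative controls on 2 of 4 and 0 of 4 arrays. With dim arrays set at that percentile, ID1 was at least 17.8-fold and BAMBI at least 1.30-fold lower in the HER2-mutant line. ID2 was called higher (limma adjusted p 4.33e-08), but it was above that percentile on 1 of 4 HER2-mutant arrays and on no other array, so no size is given.

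Another list held genes that glucocorticoids induce, as they do KLF9, together with NR3C1, the gene of the glucocorticoid receptor, which is not an induced gene. Of 7 tested, HER2-mutant cells had 4 higher and 1 lower than PIK3CA-mutant cells, where 30% of all genes were higher and 29.5% lower. TSC22D3 was higher by 3.10, SGK1 by 2.87 and ZBTB16 by 2.35, and MT2A differed by -2.18. The 4 higher genes include NR3C1, whose own difference of 1.10 is the median of the list. Between co-culture and PIK3CA-mutant line the list was split, with 3 higher, 3 lower and NR3C1 not called. Over all genes 11.1% were higher and 14.6% lower there. TSC22D3 was higher in the co-culture by 2.06 ± 0.13 (SE, limma adjusted p 6.11e-11), SGK1 by 1.87 ± 0.11 (adjusted p 6.11e-11) and ZBTB16 by 0.57 (adjusted p 0.00116). Lower were DUSP1 at -0.78 (limma adjusted p 6.88e-06), ERRFI1 at -0.26 (adjusted p 0.0206) and MT2A at -0.25 (adjusted p 0.00952). TSC22D3 averaged 10.87 ± 0.26 in co-cultures, 11.91 ± 0.15 in HER2-mutant and 8.81 ± 0.17 in PIK3CA-mutant cultures (SD, n = 4 each). TSC22D3 was below its blend (-0.68 on the log2 scale, limma adjusted p 0.000121). Of the 7 tested genes 6 were called lower than their blend and 1, MT2A, higher, by 1.02. Over all genes 22.3% were lower and 18.5% higher than the blend.

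More reported targets were called lower than higher in the HER2-mutant line. Of 18 genes described as targets of a KLF in other cells, all tested, 4 were higher there and 10 were lower, with a median of -1.14. Of all genes 30% were higher and 29.5% lower. Among the 10, S1PR1 was above the 95th percentile of the negative controls on 0 of 12 arrays and IVL on 2 of 12. TNFAIP2, also lower, was above it on 1 of 4 HER2-mutant arrays. PTGES, which KLF5 is reported to activate, differed by -3.38 on the log2 scale, and KLF5 itself by 1.44. CCND1, which promotes entry into the cell cycle, differed by -5.97. FGFBP1, another reported target of KLF5, and CCNB1, which KLF4 is reported to repress, were lower too. In HER2-mutant cultures FGFBP1 was above the 95th percentile of the negative controls on 0 of 4 arrays and CCNB1 on 1 of 4. With dim arrays set at that percentile, FGFBP1 was at least 12.6-fold and CCNB1 at least 21.1-fold lower in the HER2-mutant line. In the co-culture 11 of the 18 were higher and 3 lower than in the HER2-mutant line, and 1 was higher and 7 lower than in the PIK3CA-mutant line.

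**Figure D4:**
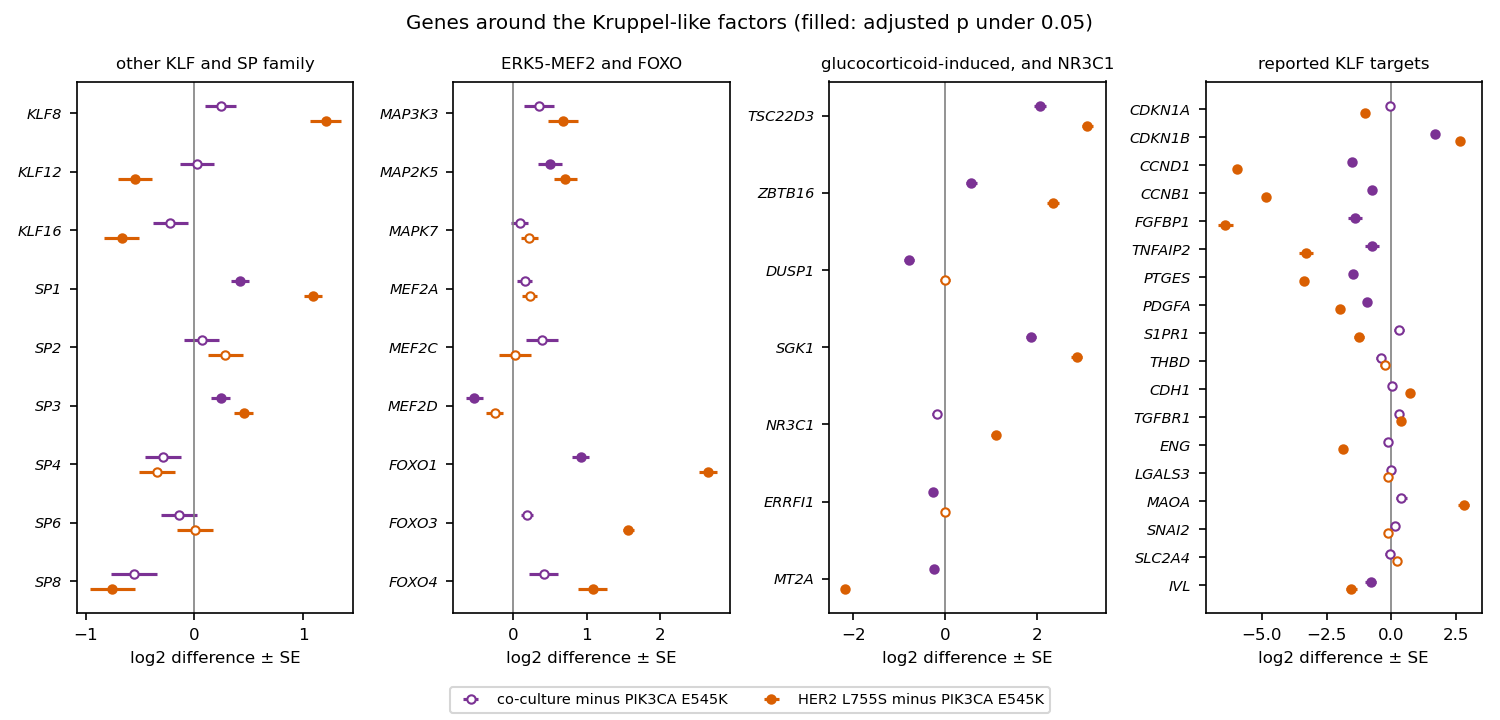
Log2 differences with SE (horizontal axes, a separate range per panel) of co-culture and HER2 L755S cultures from PIK3CA E545K cultures, for the tested genes of 4 lists. Points are measured values, also for genes that were dim on most or all arrays of a group, such as FGFBP1 and CCNB1 in HER2 L755S. Filled points passed an adjusted p under 0.05. KLF8 and SP1 are higher in HER2 L755S, and TSC22D3 and SGK1 are higher than PIK3CA E545K in both other groups.

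For each member the 2 genes with the most similar profile were found among 2848 candidates, by the root mean square difference of centred log2 values over the 12 arrays. Nearest to KLF9 were EHF (0.325), an epithelial ETS factor gene, and DSEL (0.411). Nearest to KLF4 were LYPD3 (0.248) and PRKAG2 (0.268), and to KLF5 RBM12B (0.102) and DIPK2A (0.105). KLF3 was closest to SCD5 (0.101) and TIPARP (0.112), and KLF6 to JMJD1C (0.172) and C4orf33 (0.194). KLF10 was closest to CCNE1 (0.195), the gene of cyclin E1, and WDR36 (0.195). EHF averaged 9.80 ± 0.27 in co-cultures, 13.66 ± 0.06 in HER2-mutant and 10.29 ± 0.27 in PIK3CA-mutant cultures, and CCNE1 averaged 8.23 ± 0.17, 6.84 ± 0.52 and 8.64 ± 0.08 in the same groups (SD, n = 4 each). Candidates needed an SD of at least 0.5 over the arrays, and KLF2, KLF7 and KLF11 varied less than that (SD 0.316, 0.187 and 0.223), so no nearest genes are given for them. The 12 arrays fall into 3 groups, so these distances compare few independent points.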

How the data were processed

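RNA of 12 cultures was labelled with biotin from 5 µg by a whole-transcript kit and hybridised to 1 array each, per the labels' protocols. The deposited log2 probe-set signals were made by the authors in a program that the submitters' processing notes name as Transcriptome Analysis Console, per the labels. Version, background correction, summarization and normalization are not given in the sources used here. The values were used as they stand, and 0 columns of per-sample values were left out.

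Of 24351 probe sets, 17709 were named for 1 gene, covering 17687 genes. For 20 genes with several, none of them a member, the brightest was used. A gene was kept if above the 30th percentile of the named probe sets on at least 4 arrays. In limma 3.58.1 (R 4.3.3) the 3 groups were fitted to all 12 arrays with a trend of the spread. Tests were two-sided, with Benjamini-Hochberg adjustment over 12758 genes. Figures used Python 3.11.15 and matplotlib 3.10.9. The blend took 75% and 25% of the linear means, with a delta-method SE. P-values rest on the spread between cultures within a group, pooled over the 3 groups of 4. They do not cover a spread between independent lines with the same mutation, and the number of arrays limits the precision. Named were all members, up to 4 genes a list by size of difference, any other KLF or SP gene, and 2 nearest genes per member with an SD of at least 0.5. WWP1, FBXW7, NR3C1, ERRFI1, MAP3K3, S1PR1, IVL, TNFAIP2 and the marker genes were named besides that rule, after their values were seen. Members, lists and tests were chosen with earlier results of these data known. Same-numbered cultures of different groups did not deviate together (r from -0.034 to 0.0598 over 12 pairs), so no block was used. On simulated data for HER2-mutant against PIK3CA-mutant, over 12758 genes, 38% of changes of 0.5, 90% of changes of 1 and 100% of changes of 2 on the log2 scale were called. Only 50 genes were changed at each size, a far smaller share than the 59.5% of genes called in the measured comparison. These rates therefore do not give the sensitivity of that comparison. Alternatives were other normalization, filters, moderation, array weights, a margin, a replicate block, other blends and leaving out each array.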

Additional observations from a re-analysis of the deposited data

Results flagged for a closer look

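Of 27 groups of 4 arrays, 9 genes in 3 groups, 4 held an array far from the other three by the gap between values, and chance gives about 1 such group in 20. KLF3 stood at 12.21 in HER2-mutant replicate 3, above the other HER2-mutant arrays. KLF7 stood at 14.06 in HER2-mutant replicate 1 and at 13.99 in co-culture replicate 3, each above its group. KLF11 stood at 8.14 in PIK3CA-mutant replicate 4, below its group.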

How the results depend on the processing

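Over all alternatives tried, 6 members were called between the lines and 6 between co-culture and HER2-mutant line, leaving out any array included. Against the blend 5 members were called at 50% and 6 or 7 otherwise. KLF10 was the call lost at 50%, and KLF7 the call gained without HER2-mutant replicate 1 (adjusted p 0.0345). Against the PIK3CA-mutant line 0 members were called, but 3 with array weights and 0 to 2 when 1 array was left out. Outside both lines it was 0, and 0 to 1 with 1 array left out. With the replicate block the counts of members were 6, 6, 0, 6 and 0, as without it, and the call of no member changed.

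Differences that turned sign were all uncalled. Under quantile normalization KLF11 was 0.040 between the lines, KLF7 was -0.020 against the HER2-mutant line, and KLF2, KLF4 and KLF6 were -0.020, -0.019 and -0.027 against the PIK3CA-mutant line. With median centring these 3 were -0.015, -0.021 and -0.028. With array weights they were -0.011, -0.0083 and -0.023, and KLF11 was 0.0047 between the lines. With 1 array left out, between the lines KLF2 ran from -0.050 to 0.35 and KLF11 from -0.20 to 0.077. KLF2 ran from -0.34 to 0.063 against the HER2-mutant line and from -0.26 to 0.050 against the blend. Against the PIK3CA-mutant line KLF2 ran from -0.091 to 0.10, KLF4 from -0.13 to 0.088 and KLF6 from -0.085 to 0.050.

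Over all genes, a margin of 0.5 on the log2 scale cut the calls to 3524 from 7587 between the lines, 2269 from 6503 and 439 from 3273 for the co-culture against the HER2-mutant and PIK3CA-mutant line, and 2859 from 5207 against the blend. A 50% blend gave 3167. Outside both, 236 became 146 without a trend and 151 without co-culture replicate 3. The causes were not tested. KLF2, and KLF4 outside the HER2-mutant line, were limited by background signal.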

Other observations

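Co-culture replicate 4 had the highest signal of the 4 co-cultures for 7 of the 9 members, among them KLF9, KLF4, KLF5 and KLF6, and for 28.4% of all 12758 genes. HER2-mutant replicate 1 was the highest of its group for 5 of the 9 members, against 21.8% of all genes.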
